A study of Mus musculus with 2 samples.

Results

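The 10 genes described here belong to fibroblast growth factor (FGF) signalling: the receptor genes Fgfr1, Fgfr2 and Fgfr3, the feedback inhibitor genes Spry1, Spry2, Spry4, Spred1, Spred2 and Dusp6, and the transcription factor gene Etv4. They were chosen by name, and all 10 of 10 were found among the 23366 genes named in the files. The RNA came from spermatogonial progenitor cells (SPCs) of C57BL/6 mouse testes collected 8 days after birth, in 1 Dnmt3l knockout library and 1 wild-type library. DNMT3L has no methyltransferase activity of its own and assists the enzymes that set DNA methylation in germ cells; the series title names its part in the quiescence of these cells. The labels give neither the allele of the knockout nor the number of animals behind a library. With 1 library per genotype there is no replicate check, no test between genotypes was made, and every difference below is one between these libraries.

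FGF receptors are tyrosine kinases. On binding an FGF they phosphorylate the docking adaptor FRS2 and switch on RAS, RAF, MEK and ERK. ERK activity induces ETS factors such as ETV4 together with its own inhibitors: Sprouty proteins act upstream at the level of receptor and RAS signalling, SPRED proteins bring neurofibromin to RAS, and DUSP6 removes phosphate from ERK. In the testis FGF2 is used with GDNF to keep spermatogonial stem cells in culture, and FGF receptors are known in germ cells and in somatic cells. The receptors are spliced to carry either a IIIb or a IIIc exon in the third immunoglobulin-like domain, which sets the FGFs they bind.

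Alternative exons of the receptors are shown first, since they separate the transcripts whose levels are given below. Sequences are from GENCODE M21 transcripts (GRCm38, named mm10 in the processing notes), 5′ to 3′ in the direction of transcription. Exons were called IIIb or IIIc from the RefSeq transcripts that hold them. The IIIc exon of Fgfr3 lies at chr5:33732117-33732261 and its IIIb exon at chr5:33731281-33731431, both on the plus strand, and the IIIb exon of Fgfr2 lies at chr7:130199758-130199905 on the minus strand. Capitals mark bases that differ from the aligned IIIc exon of Fgfr3 or face a gap in that alignment.
Fgfr3 IIIc: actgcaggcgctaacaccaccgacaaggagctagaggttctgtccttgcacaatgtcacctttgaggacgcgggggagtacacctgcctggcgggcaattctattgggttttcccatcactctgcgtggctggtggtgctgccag
Fgfr3 IIIb: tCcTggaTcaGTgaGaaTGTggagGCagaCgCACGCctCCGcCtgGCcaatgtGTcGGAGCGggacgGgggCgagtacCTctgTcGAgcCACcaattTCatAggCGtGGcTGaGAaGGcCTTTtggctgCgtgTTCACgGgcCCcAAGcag
Fgfr2 IIIb: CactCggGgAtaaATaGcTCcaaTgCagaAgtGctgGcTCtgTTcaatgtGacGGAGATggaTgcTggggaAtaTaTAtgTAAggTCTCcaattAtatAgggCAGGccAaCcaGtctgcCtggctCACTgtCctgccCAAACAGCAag

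In these alignments the IIIb and IIIc exons of Fgfr3 had the same base in 50.6% of alignment columns, columns with a gap included. Counted alike, the IIIb exon of Fgfr2 shared 55.5% of columns with the IIIc exon of Fgfr3 and 54.8% with the IIIb exon of Fgfr3. Fgfr1 transcripts in the files also differ by 6 optional bases at a pair of splice donors, one in the linker after the first immunoglobulin-like domain (chr8:25557815-25557820) and one at the juxtamembrane segment (chr8:25566908-25566913), next to the region through which FRS2 docks. They are shown in capitals within 30 bases on either side.
Fgfr1 linker: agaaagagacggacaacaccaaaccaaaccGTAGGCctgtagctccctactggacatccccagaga
Fgfr1 juxtamembrane: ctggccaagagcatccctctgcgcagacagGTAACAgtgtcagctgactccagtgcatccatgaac

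Levels are in FPKM, which scales sequenced fragments by transcript length and by library size, so they can be compared between genes. A gene's level is summed over its RefSeq transcripts and over the same-strand models that Cufflinks assembled on its exons in each library. The bounds in parentheses are the authors' own limits for each estimate, summed; they do not cover the spread between animals. They can exclude the estimate itself: of the 13823 genes compared below, 3.61% in the knockout and 2.50% in the wild-type library had a level outside their own bounds, none of them among the 10 genes. Read counts are not in the files, so the number of reads behind a level is unknown. The coverage for 1 FPKM had a median of 3.45 in the knockout and 3.13 in the wild-type library. Dnmt3l itself was listed at 0 FPKM in the knockout library and at 1.67 FPKM (0.79–2.68) in the wild-type library. All 18 genes listed as markers of undifferentiated spermatogonia, among them the general germ cell genes Ddx4 and Dazl, were above 0 in both libraries. Their summed level was 735.1 FPKM in the knockout and 781.3 FPKM in the wild-type library. The sum and the single genes differed in direction: 12 of the 18 log2 ratios were above 0, with a median of 0.29. The most abundant genes of the list, Dazl and Ddx4, were lower in the knockout library. Dazl was at 136.7 FPKM in the knockout and 222.6 FPKM in wild type. Ddx4 was at 122.7 FPKM in the knockout and 138.9 FPKM in wild type. The sum thus leans on genes that do not mark undifferentiated spermatogonia alone. The 8 markers of differentiating spermatogonia summed to 237.7 FPKM in knockout and 311.5 FPKM in wild type. Markers of somatic cells were detected as well. In the knockout library 14 Sertoli cell markers summed to 1225 FPKM, 7 Leydig markers to 163.3 FPKM, 10 peritubular and stromal markers to 1197 FPKM, 9 macrophage markers to 688.2 FPKM and 7 endothelial markers to 107.3 FPKM. In the wild-type library the sums were 547.7 FPKM for Sertoli, 75.1 FPKM for Leydig, 914.0 FPKM for peritubular and stromal, 384.6 FPKM for macrophage and 53.2 FPKM for endothelial markers. Single genes did not all follow these sums. All 14 Sertoli log2 ratios were above 0. Below 0 were 1 of 6 compared Leydig, 2 of 10 peritubular and stromal, 3 of 9 macrophage and 2 of 7 endothelial ratios. Tsx was at 0 in wild type, Cd68 at 0 in the knockout and Star at 0 in both. The part of these cells in the values below was not tested, and in bulk RNA fewer cells of a type cannot be told apart from less RNA per cell.

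None of the 10 genes differed 2-fold between the libraries. Folds called here and below are those of FPKM + 1, which understates differences of genes near or under 1 FPKM. Their log2 ratios of FPKM + 1, knockout over wild type, ran from -0.60 for Spred1 to 0.52 for Etv4, with a median of 0.13 beside a median of 0.22 over the 13823 genes compared, those that reached 1 FPKM in either library and have a RefSeq transcript of 300 nt or more. Of the genes compared, 11.2% were at least 2-fold different, 7.67% higher and 3.49% lower in the knockout library as deposited, and after centring on the median gene 4.87% were higher and 5.41% lower. The summed level of the 10 genes was 161.4 FPKM in the knockout and 146.3 FPKM in the wild-type library. At 1.5-fold, Spred1 was lower and no member was higher, beside 1244 genes (9.0%) lower and 22.7% of genes higher. The bounds of the libraries lay apart for Fgfr1 and Etv4, which were higher in the knockout library, and for Spred1, which was lower, beside 35.5% and 16.1% of all genes apart in those directions. Relative to the median gene, whose shift was 0.21, Spry1, Spry2, Spry4 and Dusp6 lay slightly below 0, at -0.06 to -0.10, while the 3 receptors and Etv4 stayed above it at 0.04 to 0.31. The direction of Spry1, Spry2, Spry4 and Dusp6 thus depended on the scaling.

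**Figure D1:**
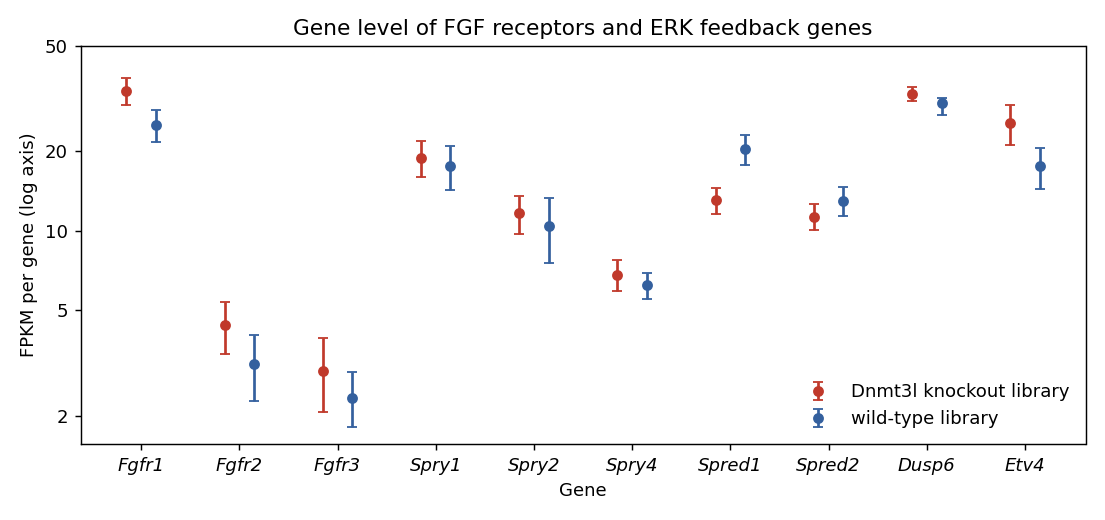
FPKM per gene (log axis) for the 10 genes in the knockout library (red) and the wild-type library (blue), with the authors' summed bounds as bars. Bars of the libraries overlap for 7 genes and lie apart for Fgfr1, Spred1 and Etv4.

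The order of the genes was alike in both libraries at its ends. In the knockout library Fgfr1 and Dusp6 stood highest, with overlapping bounds, then Etv4 and Spry1, whose bounds also overlapped, then Spred1, Spry2 and Spred2, which overlapped in turn, then Spry4, and last Fgfr2 and Fgfr3. The lower bound of Fgfr1, 29.94 FPKM, lay just below the upper bound of Etv4, 30.01 FPKM, so their bounds overlapped too. In the wild-type library neighbours overlapped from Dusp6 through Fgfr1, Spred1, Spry1, Etv4, Spred2 and Spry2, while Spry4 stood below these and Fgfr2 and Fgfr3 below Spry4. Dusp6 was higher than 76.8% of the genes compared in the knockout and 78.9% in the wild-type library, and Fgfr3 was higher than 17.4% in knockout and 16.1% in wild type.

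Fgfr1 was the main receptor in both libraries. Fgfr1 (chromosome 8, 25518772 to 25575714, plus strand) was at 33.9 FPKM (29.9–37.9) in the knockout library and at 25.1 FPKM (21.7–28.6) in the wild-type library, a log2 ratio of 0.42. Fgfr2 (chromosome 7, 130162451 to 130266808, minus strand) was at 4.41 FPKM (3.42–5.40) in the knockout and 3.14 FPKM (2.28–4.03) in the wild-type library. Fgfr3 (chromosome 5, 33721724 to 33737068, plus strand) was at 2.95 FPKM (2.06–3.94) in the knockout and 2.33 FPKM (1.82–2.93) in the wild-type library. The bounds of Fgfr2 and Fgfr3 overlapped between the libraries. RefSeq transcripts alone gave log2 ratios of 0.07 for Fgfr1, -0.07 for Fgfr2 and -0.32 for Fgfr3, so the higher sums rest on assembled models.

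The higher sums of the receptors in the knockout library came from models that start downstream of the first exons. The extracellular domains of these receptors are encoded upstream of exon 9, and the transmembrane segment and the kinase from exon 9 onward. For Fgfr1, transcripts and models reaching a RefSeq first exon summed to 12.6 FPKM (10.7–14.5) in the knockout library and 15.3 FPKM (13.3–17.3) in the wild-type library. Models starting downstream stood at 21.3 FPKM (19.2–23.5) in the knockout library and 9.88 FPKM (8.45–11.3) in the wild-type library, and made up 62.9% of the gene in knockout and 39.3% in wild type. The same split held in the other receptors: models of Fgfr2 that start downstream were at 3.26 FPKM (2.70–3.83) in the knockout and 1.20 FPKM (0.855–1.55) in the wild-type library, and models reaching its first exon were at 1.14 FPKM in knockout and 1.94 FPKM in wild type. In Fgfr3 a model starting downstream was at 1.29 FPKM (0.913–1.67) in the knockout library and none was assembled in the wild-type library, where models reaching a first exon were at 2.33 FPKM, against 1.67 FPKM in the knockout library. For all 3 receptors the sums reaching a first exon were thus lower in the knockout library with overlapping bounds. Such models were more common in the knockout library across the transcriptome: of 12518 genes with 1 FPKM or more in both libraries, downstream models made up at least 0.5 of the level in 20.5% of genes in the knockout and in 10.3% in the wild-type library. The part of this general difference in the receptor values was not tested.

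The models start near the end of the extracellular region in each gene. In the knockout library the downstream model of Fgfr1 has 11 exons and begins with 34 bases at 25565862 to 25565895, which overlap no GENCODE exon of the gene and lie between the IIIc exon and exon 9. In the wild-type library the corresponding model, also of 11 exons, begins at 25564225, upstream of the IIIc exon, and includes it. The level over the IIIc exon of Fgfr1 was 12.6 FPKM in the knockout library (10.7–14.5) and 25.1 FPKM (21.7–28.6) in the wild-type library, with bounds apart, although exons 10 to 17 were at 33.9 FPKM in knockout and 25.1 FPKM in wild type. Downstream models of Fgfr2, with 10 exons in both libraries, begin in the intron before exon 9 and run on into it, as does the 10-exon model of Fgfr3 in the knockout library. Over exon 9 the levels were 4.41 FPKM in knockout and 3.14 FPKM in wild type for Fgfr2, and 2.95 FPKM in knockout and 2.33 FPKM in wild type for Fgfr3.

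**Figure D2:**
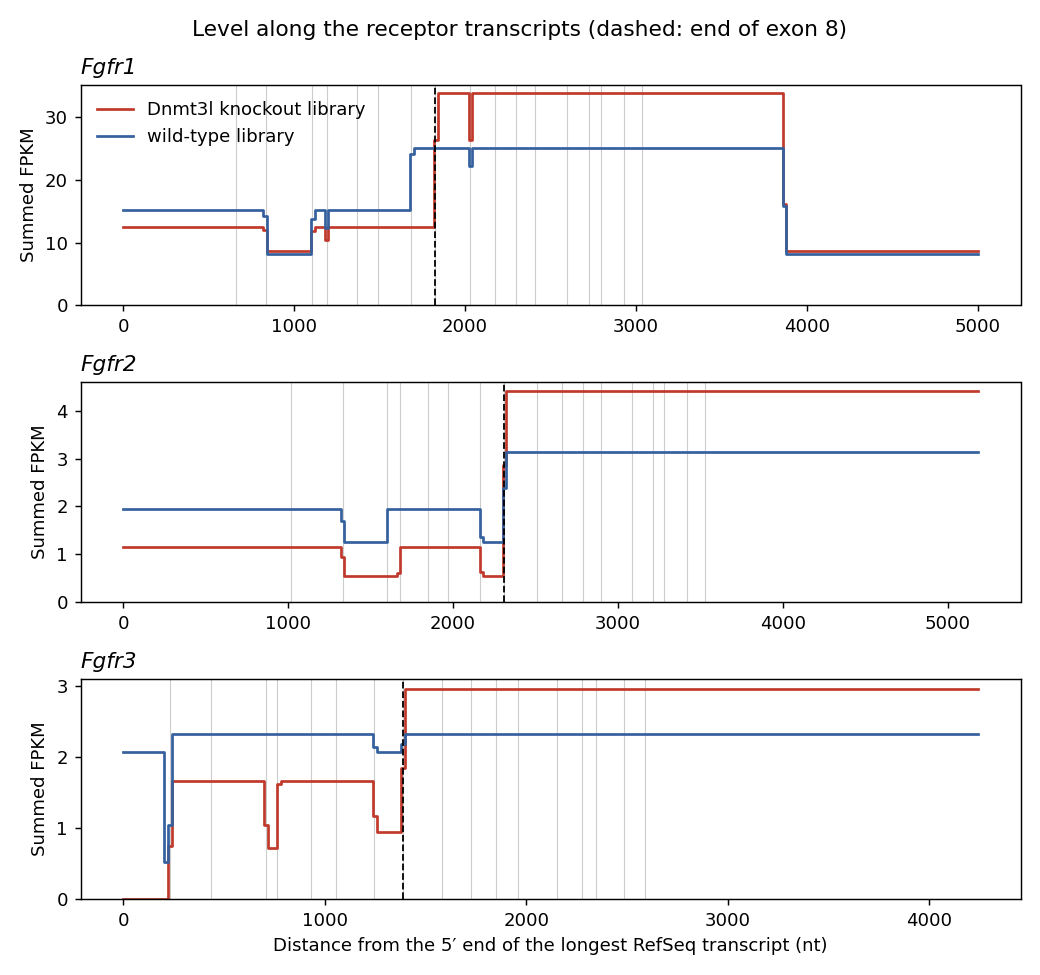
Summed FPKM of all transcripts and models covering each position (averaged over short steps) along the longest RefSeq transcript of Fgfr1, Fgfr2 and Fgfr3, from 5′ to 3′ in nt, with exon boundaries as grey lines. Upstream of the dashed line at the end of exon 8 the knockout library (red) lies at or below the wild-type library (blue) except over exon 3 of Fgfr1 (8.66 FPKM in knockout and 8.17 FPKM in wild type), and downstream it lies above.

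**Figure D3:**
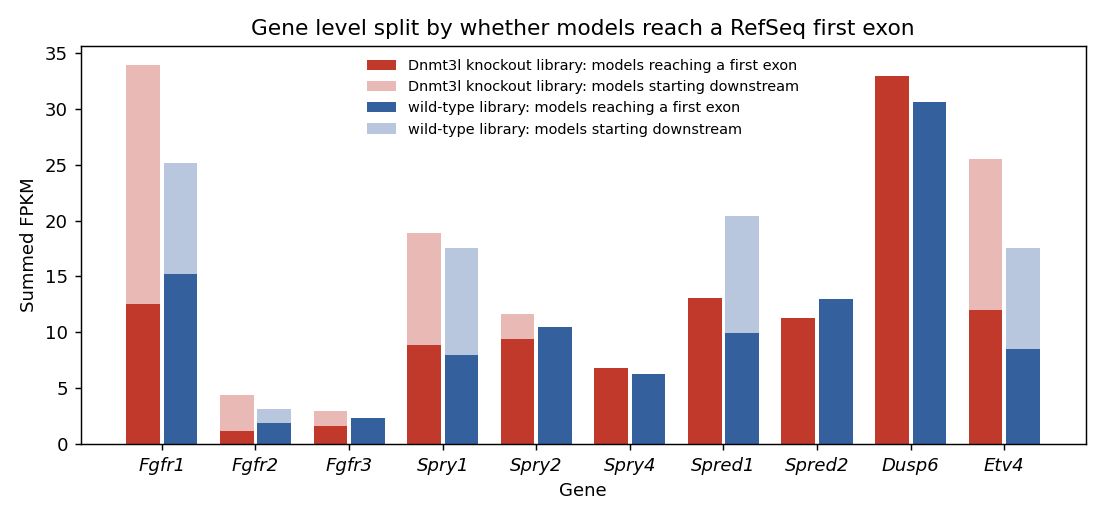
Summed FPKM of each gene in the knockout library (red, left bar) and the wild-type library (blue, right bar), split into transcripts and models that reach a RefSeq first exon (dark) and those that start downstream (pale). The pale share of the receptors is larger in the knockout library, whereas that of Spred1 appears in the wild-type library alone.

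Both IIIb and IIIc forms were listed for Fgfr2 and Fgfr3, at low levels. The IIIc exon of Fgfr2 was at 0.550 FPKM (0.357–0.748) in the knockout library and 1.25 FPKM (0.970–1.54) in the wild-type library, with bounds apart. Its IIIb exon was at 0.593 FPKM (0.359–0.827) in the knockout and 0.685 FPKM (0.454–0.947) in the wild-type library, where the value belonged to an assembled model of 17 exons while the RefSeq IIIb transcript was at 0. The IIIb form made up 51.9% of the summed IIIb and IIIc levels of Fgfr2 in the knockout library and 35.3% in the wild-type library.

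In Fgfr3 the IIIb share was likewise larger in the knockout library. Its IIIb exon was at 0.717 FPKM (0.481–0.963) in the knockout library and 0.264 FPKM (0.107–0.414) in the wild-type library. Its IIIc exon was at 0.950 FPKM (0.667–1.31) in the knockout and 2.07 FPKM (1.71–2.51) in the wild-type library. Bounds lay apart for both exons, and the IIIb share was 43.0% in the knockout and 11.3% in the wild-type library. Among RefSeq transcripts, only those that start at 33722306 were above 0 in the knockout library, so the upstream first exon of Fgfr3, at 33721724, was listed at 0 there and at 1.84 FPKM in the wild-type library. These shares rest on 1 transcript or model above 0 per form in each library, and a listed 0 can be a failed estimate.

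A IIIb exon of Fgfr1 was not analysed here. The exon of its first immunoglobulin-like domain was at 8.66 FPKM (7.47–9.86) in the knockout and 8.17 FPKM (7.04–9.34) in the wild-type library. The assembled 17-exon models that skip it were at 3.91 FPKM (3.24–4.59) in the knockout and 7.09 FPKM (6.22–7.96) in the wild-type library, with bounds apart. The linker donor with its 6 optional bases was used in 42.3% of the summed level of both donors in the knockout and 37.8% in the wild-type library. At the juxtamembrane donor, forms with the 6 bases were at 8.66 FPKM (7.47–9.88) in the knockout and 15.3 FPKM (13.3–17.3) in the wild-type library, and forms without them at 25.3 FPKM (22.5–28.1) in knockout and 9.88 FPKM (8.45–11.3) in wild type. The share with the 6 bases was 25.5% in the knockout and 60.7% in the wild-type library. The form without the 6 bases came from assembled models alone, most of it in the knockout library from the model that starts downstream of the IIIc exon, so this share moves with the downstream models described above.

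Among the Sprouty genes, whose products block RAS activation, the gene sums were close between the libraries. Spry1 (chromosome 3, 37639950 to 37644599, plus strand) was at 18.9 FPKM (15.9–21.9) in the knockout and 17.5 FPKM (14.2–20.9) in the wild-type library. More than any other form, a single-exon model over its last exon carried this, at 10.04 FPKM (8.70–11.4) in the knockout and 9.54 FPKM (8.04–11.1) in the wild-type library. The 3-exon RefSeq transcript of Spry1 was at 5.58 FPKM (4.63–6.52) in the knockout and 3.14 FPKM (2.40–3.87) in the wild-type library, with bounds apart. A 2-exon model without the middle exon was at 3.30 FPKM (2.62–3.99) in knockout and 4.86 FPKM (3.77–5.97) in wild type, with overlapping bounds. The middle exon was thus covered at 5.58 FPKM in knockout and 3.14 FPKM in wild type, a log2 ratio of 0.67, while the last exon was at 18.9 FPKM in knockout and 15.9 FPKM in wild type.

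Spry2 (chromosome 14, 105891947 to 105896819, minus strand) was at 11.6 FPKM (9.71–13.6) in the knockout and 10.4 FPKM (7.55–13.4) in the wild-type library, but the sum hid a difference within the gene. The RefSeq transcript was at 9.43 FPKM (8.25–10.6) in the knockout and 5.79 FPKM (4.92–6.66) in the wild-type library, with bounds apart. In the wild-type library a further 4.66 FPKM (2.64–6.70) belonged to a single-exon model of 485 nt at the 5′ end, which covers the first exon and not the coding last exon. Over exon 2 of Spry2 the levels were 11.3 FPKM in the knockout and 5.79 FPKM in the wild-type library, and over exon 1 they were 9.43 FPKM in knockout and 10.4 FPKM in wild type. The mean level over all exon bases gave 11.1 FPKM in knockout and 6.31 FPKM in wild type, a log2 ratio of 0.73 against 0.14 for the gene sum.

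Spry4 (chromosome 18, minus strand) was at 6.83 FPKM (5.91–7.76) in the knockout and 6.25 FPKM (5.53–6.94) in the wild-type library, with the same level over both exons. In the knockout library 1.70 FPKM of it belonged to an assembled model that runs 673 nt past the RefSeq 3′ end, and the RefSeq transcript alone was at 5.13 FPKM there and 6.25 FPKM in the wild-type library, a log2 ratio of -0.24.

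The SPRED genes were the 2 lower members. Spred1 (chromosome 2, 117121450 to 117179336, plus strand) was at 13.1 FPKM (11.6–14.6) in the knockout library and 20.4 FPKM (17.7–23.0) in the wild-type library. The ratio lay above that of 8.59% of the genes compared. It was negative under all 11 other settings tried, at -0.88 to -0.49. Several of these could not have turned it positive: pseudocounts cannot change a direction, and centring on the median gene lowers every ratio. The difference did not extend to the first exon, which stood at 13.1 FPKM in the knockout and 9.99 FPKM (8.49–11.5) in the wild-type library. Wild type held a further 10.4 FPKM (9.19–11.6) in a 7-exon model whose first exon, 30 nt at 117127637 to 117127666, overlaps no GENCODE exon of the gene; no such model was assembled in the knockout library. At the other end, the Spred1 model in the knockout library ran 2928 nt past the RefSeq end, to 117182264, at 8.04 FPKM (7.36–8.73), within a GENCODE transcript that ends at 117182279. In the wild-type library the models ended 779 nt past it, and most of the rest of that stretch was covered by a separate model without a strand at 4.14 FPKM (3.21–4.99), which was not counted for the gene. With that model counted, the first exon and the far 3′ stretch were higher in the knockout library and exons 2 to 7 were lower.

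Spred2 (chromosome 11, 19924442 to 20022597, plus strand) was at 11.3 FPKM (10.1–12.6) in the knockout and 13.003 FPKM (11.4–14.6) in the wild-type library, at one level over all 6 exons. Its RefSeq transcript was listed at 0 (upper bound 0.042) in the knockout library and at 2.83 FPKM (2.15–3.53) in the wild-type library, so that RefSeq transcripts alone gave a log2 ratio of -1.94. In both libraries most of the level was carried by longer models, which run 1419 nt past the RefSeq end in the knockout and 1410 nt in the wild-type library. The main one of the knockout library, at 9.37 FPKM (8.56–10.2), has an added 28-nt exon upstream that overlaps no GENCODE exon of the gene, and a 6-exon model was at 1.92 FPKM, where its counterpart in wild type was at 10.2 FPKM.

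Dusp6, which encodes a phosphatase of ERK, was the least divided member. Dusp6 (chromosome 10, 99263231 to 99267489, plus strand) was carried by its 3-exon RefSeq transcript alone, at 32.9 FPKM (30.9–34.95) in the knockout and 30.6 FPKM (27.3–31.7) in the wild-type library. The bounds overlapped, and the log2 ratio of 0.10 became -0.10 after centring on the median gene.

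Etv4, an ETS factor gene that answers to ERK, had the highest ratio of the 10 genes. Etv4 (chromosome 11, 101769742 to 101785310, minus strand) was at 25.5 FPKM (21.1–30.01) in the knockout and 17.5 FPKM (14.4–20.5) in the wild-type library. Transcripts reaching its first exon were at 11.99 FPKM (9.89–14.1) in the knockout and 8.47 FPKM (7.32–9.64) in the wild-type library, with bounds apart, and those starting downstream were at 13.5 FPKM (11.2–15.9) in knockout and 9.04 FPKM (7.10–10.9) in wild type. All 13 exon levels were higher in the knockout library, with log2 ratios of 0.41 to 0.67. These levels are sums over the same few transcripts and models, so they are not 13 separate measurements. An 11-exon model that starts at exon 3 was at 8.32 FPKM (6.9998–9.66) in the knockout and 5.10 FPKM (3.96–6.21) in the wild-type library. The 13-exon RefSeq transcript by itself stood the other way, with 6.62 FPKM (5.53–7.72) in the knockout and 8.47 FPKM in the wild-type library; the knockout library also holds an assembled 13-exon model at 5.37 FPKM (4.35–6.38). In the related gene Etv5, named after its values were seen, the levels were 35.98 FPKM in knockout and 34.1 FPKM in wild type.

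Transcript length moved with the ratio across genes, and the 10 genes were set beside genes of like length. Over genes of 5114 to 5989 nt, which include Fgfr2, the median log2 ratio was -0.10, and over genes of 1906 to 2100 nt, which include Spry2, it was 0.33. With the median of each of 20 length bins removed, Fgfr1 and Fgfr2 stood at 0.46 and 0.48 and Etv4 at 0.27, and Spred1 stood at -0.75. Fgfr3 was at 0.24, Spry4 at 0.15 and Spred2 at -0.39. Spry1, Spry2 and Dusp6 changed direction, to -0.15, -0.19 and -0.10. The level over the last 1000 nt less that over the first 1000 nt, as a difference of log2 ratios, was 0.84 in Fgfr2, 0.77 in Fgfr3 and 0.30 in Fgfr1, beside a median of 0.02 over 9353 genes of 2000 nt or more, of which 12.2% reached 1 and 1.84% reached -1. None of the 10 genes reached either by this measure. For Fgfr1 the measure leaves out the downstream models, since all its assembled models end before the last 1000 nt. The level there was that of RefSeq transcripts alone, 8.66 FPKM in the knockout and 8.17 FPKM in the wild-type library. Over exon 10 of Fgfr1, which the downstream models cover, the log2 ratio was 0.42, beside -0.22 over the first 1000 nt. The value of 0.30 thus understates the difference along Fgfr1.

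**Figure D4:**
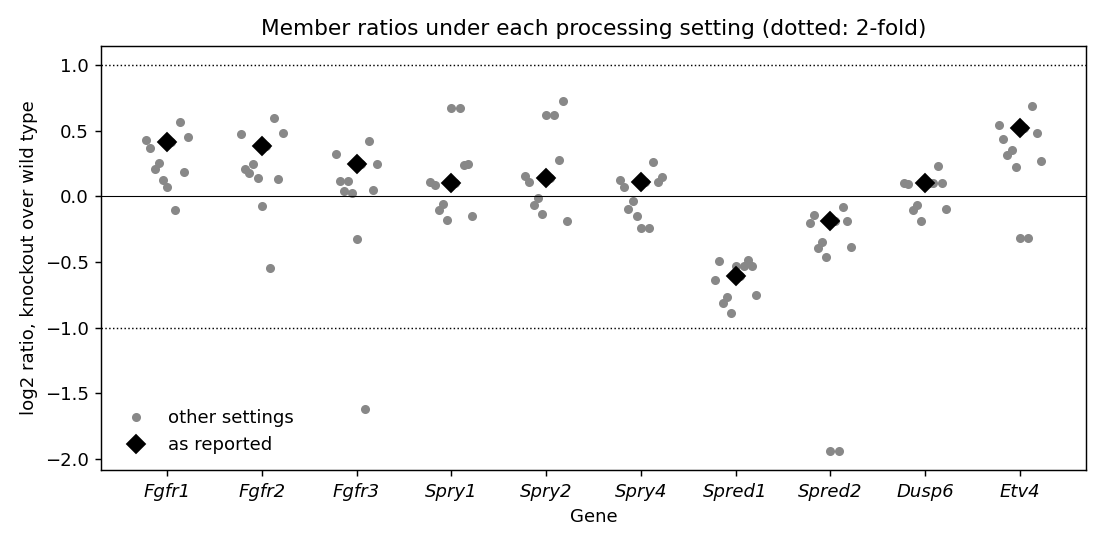
The log2 ratio, knockout over wild type, of each gene as reported (diamond) and under 11 other processing settings (dots), with dotted lines at 2-fold. Spred1 and Spred2 lie below 0 throughout, although several settings, such as the pseudocounts, cannot change a direction. The dots past 2-fold belong to RefSeq transcripts alone for Spred2 and to the most abundant RefSeq transcript for Spred2 and Fgfr3.

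The rest of the pathway was read from lists that hold none of the 10 genes. Of 106 genes, 82 were compared, and 4 were at least 2-fold higher and 1 at least 2-fold lower in the knockout library, 6.10% together beside 11.2% of all genes. Their median log2 ratio was 0.14, beside 0.22 over all genes compared.

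FGF ligands were scarce. Of 22 ligand and FGF-like genes 6 reached 1 FPKM in either library and none differed 2-fold. The highest was Fgf13, an FGF homologue that acts inside cells, at 6.19 FPKM in the knockout and 5.78 FPKM in the wild-type library, and its relative Fgf11 was at 3.82 FPKM in knockout and 4.83 FPKM in wild type. Of the secreted ligands, Fgf8 was at 1.91 FPKM in the knockout and 0.906 FPKM in the wild-type library, Fgf7 at 1.06 FPKM in knockout and 0.668 FPKM in wild type, and Fgf22 at 0.714 FPKM in knockout and 1.53 FPKM in wild type. Fgf12, another intracellular homologue, was at 1.71 FPKM (1.33–2.103) in the knockout and 0.577 FPKM (0.363–0.834) in the wild-type library, with bounds apart. Fgf2 and Fgf9, named after their values were seen, were below 1 FPKM, at 0.217 FPKM in the knockout library and listed at 0 in the wild-type library for Fgf2, and at 0.784 FPKM in knockout and 0.374 FPKM in wild type for Fgf9.

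Of 14 other receptors and heparan sulphate or FLRT co-receptors 10 were compared and none differed 2-fold. Sdc4, which encodes the proteoglycan syndecan-4, was at 237.4 FPKM in the knockout and 134.3 FPKM in the wild-type library, and the glypican gene Gpc3 at 49.0 FPKM in knockout and 40.7 FPKM in wild type. Fgfrl1, which encodes a receptor without a kinase domain, was at 17.1 FPKM in the knockout and 12.2 FPKM in the wild-type library, and Gpc1 at 9.32 FPKM in knockout and 6.60 FPKM in wild type. Flrt1 was lower at 0.736 FPKM (0.572–0.907) in the knockout and 2.13 FPKM (1.74–2.54) in the wild-type library.

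All 16 adaptor and exchange factor genes were compared, and 8 ratios were above and 8 below 0. The docking adaptor genes stood opposite ways as listed: Frs2 was at 7.29 FPKM (6.12–8.48) in the knockout and 12.04 FPKM (10.8–13.3) in the wild-type library, while Frs3 was at 11.05 FPKM (8.99–13.1) in the knockout library and listed at 0 (upper bound 0.063) in the wild-type library. The listed 0 of Frs3 can be a failed estimate, so its difference is uncertain. The other gene past 2-fold was Rasgrp2, a nucleotide exchange factor gene, at 42.4 FPKM in the knockout and 15.3 FPKM in the wild-type library, a gene ratio of 1.42 (log2) beside 0.33 over its exons. Rasgrf1, another exchange factor gene, was at 3.04 FPKM (2.33–3.85) in the knockout and 1.06 FPKM (0.658–1.67) in the wild-type library, a log2 ratio of 0.97 for the gene and 0.13 over its exons. Exon ratios here and below count transcripts and models of any gene on those bases, on either strand. They need not describe the named gene alone. Grb2 was at 34.5 FPKM in knockout and 27.5 FPKM in wild type and Shc1 at 35.3 FPKM in knockout and 32.1 FPKM in wild type.

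None of 15 compared genes of the RAS, RAF, MEK and ERK core differed 2-fold. Mapk3, which encodes ERK1, was at 122.7 FPKM (114.8–131.01) in the knockout and 72.0 FPKM (65.8–78.2) in the wild-type library, and Map2k2, which encodes MEK2, at 77.9 FPKM (67.2–79.6) in knockout and 45.01 FPKM (42.4–47.8) in wild type. Map2k1, which encodes MEK1 and was named after its value was seen, stood the other way, at 34.6 FPKM in knockout and 39.4 FPKM in wild type with overlapping bounds. Nras was at 32.1 FPKM in knockout and 19.6 FPKM in wild type, although over its exons the log2 ratio was -0.09, and the RAF activator gene Shoc2 at 10.4 FPKM in knockout and 16.7 FPKM in wild type.

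Of 21 other genes listed as inhibitors and compared, 12 had log2 ratios above 0 and 9 below. Their median was 0.05, beside 0.22 over all genes compared. Cbl, which encodes a ubiquitin ligase of receptor tyrosine kinases, was the single one past 2-fold, at 3.34 FPKM (2.71–3.97) in the knockout and 13.1 FPKM (12.6–13.7) in the wild-type library. Lower ratios short of 2-fold were found for Rasa1, a GTPase-activating protein gene of RAS, at 16.4 FPKM in knockout and 27.2 FPKM in wild type, and for Rasal2 at 5.69 FPKM in knockout and 9.73 FPKM in wild type. Peak1 was also lower, at 5.59 FPKM in knockout and 9.87 FPKM in wild type. It stands in this list although its product is not an established inhibitor of the cascade. Pebp1, which encodes the RAF kinase inhibitor protein, was at 247.8 FPKM in the knockout and 196.2 FPKM in the wild-type library, and Dusp9, another ERK phosphatase gene, at 33.5 FPKM in knockout and 27.4 FPKM in wild type. Spry3 was listed at 0 in both.

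Of 14 other ERK-responsive genes compared, Ier2 and Ier3, immediate early response genes, were at least 2-fold higher, beside 7.67% of all genes as deposited and 4.87% after centring. Ier2 was at 69.5 FPKM in the knockout and 29.4 FPKM in the wild-type library, and Ier3 at 19.3 FPKM in knockout and 9.05 FPKM in wild type. The early transcription factor genes Fos and Egr1 were at 137.6 and 132.4 FPKM in the knockout library and at 88.2 and 92.4 FPKM in the wild-type library, and Fosb was at 21.5 FPKM in knockout and 11.7 FPKM in wild type. The knockout levels of Ier2, Ier3 and Fos and the wild-type level of Egr1 lay above their own upper bounds, as did the knockout levels of Sdc4 and Pebp1. The median log2 ratio of the list was 0.39, beside 0.22 over all genes compared, with 11 ratios above 0 and 3 below. The 3 below, named after their values were seen, were Egr3 at -0.43, Etv1 at -0.31 and Ccnd1 at -0.23. Bounds lay apart for Ccnd1, at 21.6 FPKM in knockout and 25.5 FPKM in wild type.

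**Figure D5:**
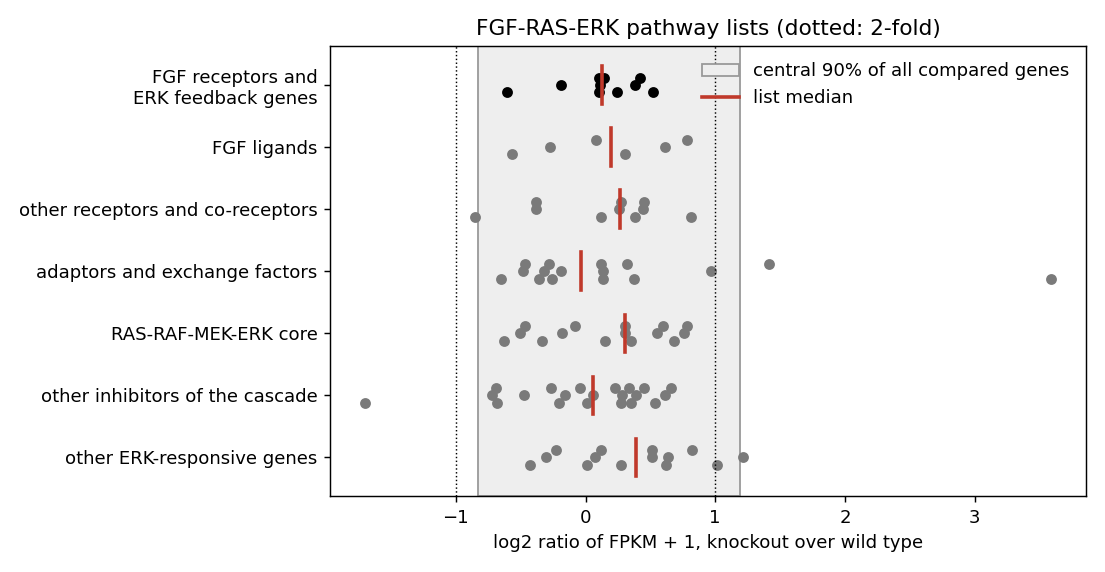
The log2 ratio of FPKM + 1, knockout over wild type, of each compared gene in the pathway lists (dots) with the list median (red line), beside the central 90% of all compared genes (grey, -0.83 to 1.19) and 2-fold (dotted). The 10 genes in the top row lie within 2-fold, and 5 genes of the other lists lie beyond it.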

How the data were processed

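Poly(A) RNA of 1 Dnmt3l knockout and 1 wild-type library was sequenced in pairs of 100-nt reads, per the labels' protocols. Per the submitters' processing notes, the tools were CASAVA 1.9, TopHat2 2.0.8 and Cufflinks 2.1.1 on build mm10; their settings are not given in the sources used here. The deposited files give an FPKM, its bounds and a coverage per transcript, for 30073 RefSeq transcripts and for models assembled separately in each library (20415 in the knockout and 20579 in the wild-type library). The deposited score column was not used. No strand-marking step is given.

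RefSeq identifiers were named by accession in a RefSeq table (28942 of 30079) or a GENCODE table (174), or by exon overlap with GENCODE M21 (884); 79 stayed unnamed. Each assembled model of at least 300 nt was assigned to the same-strand gene with which it shared most exon bases; models without a strand joined with a share of 0.5 or more, which touched none of the 10 genes. Ratios are log2((knockout FPKM + 1)/(wild-type FPKM + 1)), a scale that understates differences of low genes. An exon level is the summed FPKM of all transcripts and models of 300 nt or more covering a base, averaged over the exon or the gene. It counts those of other genes and of either strand, so it can include other genes where they overlap. Exons covered by the same transcripts and models thus share a level by construction and are not separate measurements. A model reaches a first exon if it overlaps the first exon of any RefSeq transcript of the gene. Since models were assembled per library, a form without a counterpart may be a difference in assembly. The calculation was checked on simulated data. The coverage for 1 FPKM had a median of 3.45 in the knockout and 3.13 in the wild-type library.

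The 10 genes, the lists and the settings were chosen with earlier results of these data known. Named pathway genes were, of those at 1 FPKM or more in a library, the 4 largest absolute ratios and the 2 highest levels of each list, beside genes marked as named later. Python 3.11.15, NumPy 2.4.6 and pandas 2.3.3 were used. Some items are not reported here.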

Additional observations from a re-analysis of the deposited data

How the results depend on the processing

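No paired analysis was possible because there is 1 library per genotype, and no library could be left out. Under 11 other settings, the 10 genes gave 110 log2 ratios, of which 95 stayed between the ratios set by the authors' bounds. None of the 10 genes was 2-fold higher under any setting run. At least 2-fold lower were 1 gene with RefSeq transcripts only (Spred2, -1.94) and 2 with the most abundant RefSeq transcript (Fgfr3, -1.62, and Spred2). With a threshold of 1.5-fold in place of 2-fold, 1 gene (Spred1, -0.60) was lower. With RefSeq transcripts only Etv4 was at -0.31, and with the most abundant RefSeq transcript Fgfr1 was at -0.10 and Fgfr2 at -0.54. The share of all genes at least 2-fold higher, and lower, in the knockout library was 7.67% and 3.49%. In that order it was 3.002% and 1.16% with a pseudocount of 5, 4.87% and 5.41% centred on the median gene, 4.49% and 5.97% scaled to the summed FPKM of all but the top 50 genes, 11.7% and 11.3% with RefSeq transcripts only, 12.3% and 11.7% with the most abundant RefSeq transcript, and 4.57% and 2.09% with no filter on low values. The share higher was 13.4% with the coverage attribute and 4.77% with the median of 20 length bins removed, and the share lower was 2.26% among genes above 0 in both libraries; the length bins and the genes above 0 in both were chosen after seeing the data. The number of reads behind a level is unknown, which limits what can be said of Fgfr2 and Fgfr3, the lowest of the 10 genes.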
